A study of Mus musculus with 56 samples.

Results

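The oligoadenylate synthetase family of the mouse is described here by 8 genes (Oas1a, Oas1g, Oas1b, Oas1c, Oas2, Oas3, Oasl1 and Oasl2) of 53431 features in a table of front paw RNA. The rows were taken by Ensembl identifier, matched to these symbols. The family was chosen because genes induced by interferon had stood out between isotype and no CIA paws in an earlier look at the same values. Comparisons with the no CIA libraries are therefore descriptions: where counts of limma calls are printed for them, they stand beside the share over all genes and support nothing. The comparisons among the immunised groups carry the tests. Those with isotype, and the interaction of the antibodies, use the isotype libraries of that same contrast, so they are not independent of the choice.

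Oligoadenylate synthetases are enzymes induced by interferon. When they bind double-stranded RNA, as made by many viruses, they join ATP into short oligoadenylate chains, a signal that leads to the breakdown of RNA in the cell. The mouse carries a tandem array of Oas1 copies, of which Oas1a and Oas1g have synthetase activity, beside the larger enzymes Oas2 and Oas3 and a pair of related genes, Oasl1 and Oasl2, whose proteins end in ubiquitin-like domains. Several of the genes belong to the interferon signature followed in rheumatic disease.

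The mice were male DBA/1, and RNA came from homogenised whole front paws in 56 libraries. In 4 groups of 13 mice, collagen-induced arthritis (CIA) was raised by immunising with chicken type II collagen on days 1 and 21, with antibody injections into the peritoneum from day 21, given 2 times a week for 5 weeks. The anti-TNF group received clone XT3.11 at 30 mg/kg, the anti-IL-6 group clone MP5-20F3 at 10 mg/kg, and the combination group both clones at those doses. The isotype group received a control IgG1 at 30 mg/kg, so all 4 immunised groups were injected with an antibody. The no CIA group is 4 mice with no treatment, so the immunised groups differ from them by collagen and by injections together. Paws were taken on day 91, after injections had ended. The study addresses what each antibody and the pair do in this model.

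All the family genes lie on chromosome 5 (GRCm38, GENCODE M21): Oasl2 (114896936 to 114912234) and Oasl1 (114923240 to 114937915) side by side, and the others between 120730333 (the end of Oas2) and 120907521 (the start of Oas1a). Stretches before the annotated starts are shown for the members on which the description turns, from RefSeq promoter windows on GRCm38.p6. They come from the reference genome and not from DBA/1 mice. Each is the run of 120 bases outside annotated exons that lies nearest the start, written 5′ to 3′ on the gene's strand, and capitals mark GAAANNGAAA, the core of the element bound by interferon-activated factors, on either strand. Oas1a, Oas1g, Oas3 and Oas1c lie on the minus strand. Oas1f, a paralog outside the 8 with a high level in all 5 groups, lies on the plus strand and is shown for contrast.
Oas1a, chr5:120907526-120907645: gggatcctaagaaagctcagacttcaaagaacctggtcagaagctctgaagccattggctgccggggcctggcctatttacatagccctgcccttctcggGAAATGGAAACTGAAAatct
Oas1g, chr5:120887614-120887733: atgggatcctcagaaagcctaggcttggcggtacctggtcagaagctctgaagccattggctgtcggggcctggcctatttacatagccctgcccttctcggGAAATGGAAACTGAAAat
Oas3, chr5:120777662-120777781: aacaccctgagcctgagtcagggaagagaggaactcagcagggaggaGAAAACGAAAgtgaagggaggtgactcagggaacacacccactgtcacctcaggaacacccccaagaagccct
Oas1c, chr5:120812515-120812634: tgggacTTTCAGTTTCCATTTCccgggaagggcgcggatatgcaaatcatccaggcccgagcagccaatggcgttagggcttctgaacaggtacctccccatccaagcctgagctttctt
Oas1f, chr5:120847247-120847366: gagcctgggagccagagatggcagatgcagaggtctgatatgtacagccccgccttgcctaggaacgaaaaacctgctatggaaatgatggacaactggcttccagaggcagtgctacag

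Oas1a and Oas1g hold the same 16-base run, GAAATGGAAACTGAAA, in which a pair of matches overlap, beginning 20 bases before the RefSeq start of Oas1a and 18 bases before that of Oas1g. The Oas1c line is the whole gap of 120 bases between Oas1c and its divergent neighbour Oas1b. The same 16-base run lies in it, on the strand of Oas1b, 7 to 22 bases before the start of Oas1b and 99 to 114 bases before that of Oas1c. Oas3 has 1 match, 75 bases before its start. The windows of Oasl1, Oasl2, Oas1f and Oas1h (300 bases, of which 250 lie before the start) hold none of these letters. No window was available for Oas2, Oas1b, Oas1d or Oas1e, so these genes are missing from the search and from the counts that follow. Among all 32851 mouse windows in the table, 3.44% hold GAAANNGAAA and 7 windows of 5 genes hold this 16-base run, those of Oas1a, Oas1g, Oas1c, Apol9a and Apol9b. A match is a description of the letters and not evidence of binding.

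Levels are FPKM, in which mapped fragments are scaled by transcript length and by library size, so that genes as well as mice can be compared. Depth, estimated from the steps of low values, was 39.9 to 54.8 M fragments per library (M for mega, median 46.4). Tissue markers fitted a whole paw: the mean log2(FPKM + 1) of 10 skeletal muscle markers was 6.3 to 11.3, of 10 epidermis markers 7.93 to 10.7 and of 10 bone and cartilage markers 2.91 to 6.93 over the immunised libraries. The labels do not say whether mice of a group shared cages or days, so errors measure the spread between these libraries. Index numbers in the titles were split here into 5 runs within which mouse numbers mostly, but not always, ascend. The labels name no such runs and do not say whether they mark batches. The no CIA libraries lie in 1 run with 2 isotype libraries.

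Reads can be shared within the Oas1 array, which bears on every value of its members. The longest Oas1a and Oas1g transcripts were 97.7% identical over 1859 aligned bases, against 77.9% for Oas1c with Oas1g and 83.1% for Oas1b with Oas1g. Of all 75-base words in Oas1a transcripts, 47.6% also occurred in Oas1g, and 36.9% of the Oas1g words occurred in Oas1a. With 150-base words these shares were 32.4% and 24.1%. Oas1c shared 1.5% of its 75-base words with Oas1d, Oas1e or Oas1f, and Oas1b, Oas2, Oas3, Oasl1 and Oasl2 shared 0%. With 50-base words, Oas1c shared 9.82% and Oas1b 1.17% with other Oas1 copies, and 1.43% of the Oas1c words occurred in Oas1f. Values of Oas1a and Oas1g are thus uncertain as a split, and their sum with Oas1b and Oas1c was tested beside them. Exons of Oasl1 and Oas1c also overlap antisense genes, Gm13822 and Gm43069. The kit keeps strand, but no source used here gives the counting setting. The highest group mean was 0.269 FPKM for Gm13822 and 0.00878 FPKM for Gm43069. In a single combination library Gm13822 reached 1.12 FPKM. In no CIA paws it averaged 0.158 FPKM, beside 0.317 FPKM for Oasl1. Whether such reads entered the Oasl1 values was not tested.

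Among the active synthetases of the Oas1 array, Oas1a was the more abundant. Its FPKM (lowest, median, highest) was 2.09, 4.06 and 8.79 in anti-TNF paws, 1.29, 3.89 and 9.6 in anti-IL-6 paws, and 1.93, 3.95 and 8.23 in combination paws. It was 1.83, 4.08 and 13.4 in isotype paws, against 0.468, 0.544, 0.614 and 0.58 in the 4 no CIA paws. Every immunised library stood above every no CIA library, and the 4 immunised groups covered each other. Oas1g had 0.481, 1.27 and 2.35 FPKM in anti-TNF paws, 0.187, 0.93 and 1.81 in anti-IL-6 paws, and 0.339, 1.17 and 3.26 in combination paws. It had 0.405, 0.931 and 3.62 in isotype paws, against 0.139, 0.111, 0.167 and 0.0548 in no CIA paws. Here too no library of an immunised group reached down to the no CIA values, though the lowest anti-IL-6 library lay just above them. The no CIA values of Oas1g rest on about 5.73 to 19.3 fragments per library, and those of Oas1a on about 40.3 to 57.3. The ratio of Oas1a to Oas1g averaged 3.98 ± 0.736 in anti-TNF, 4.75 ± 1.65 in anti-IL-6, 3.87 ± 1.25 in combination and 4.31 ± 1.11 in isotype paws (SD, n = 13 each). In no CIA paws it averaged 5.63 ± 3.37 (SD, n = 4), so these copies kept overlapping ratios in all 5 groups.

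**Figure D1:**
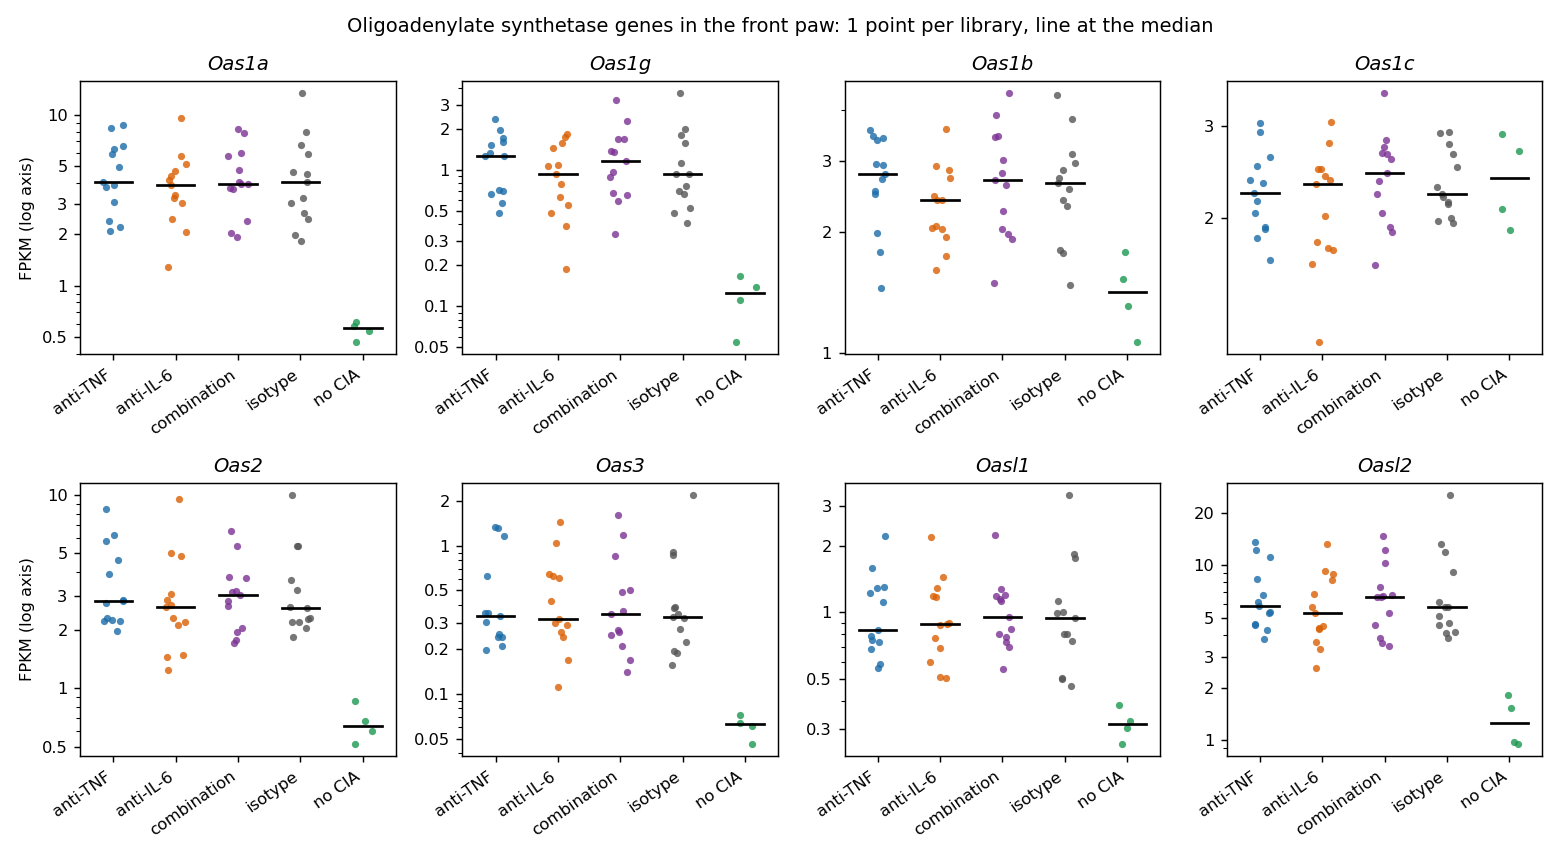
FPKM of the 8 family genes on log axes, 1 point per library, with a line at the median of each group (n = 13 for each immunised group, n = 4 for no CIA). For Oas1a, Oas1g, Oas2, Oas3, Oasl1 and Oasl2 every immunised library lies above the 4 no CIA libraries, whereas Oas1b overlaps in part and Oas1c, between 1.16 and 3.46 FPKM, overlaps throughout.

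The remaining members of the array behaved differently from each other. Oas1b, which in many laboratory strains carries a premature stop codon and which GENCODE lists as a polymorphic pseudogene, had 1.45, 2.79 and 3.58 FPKM in anti-TNF paws, 1.61, 2.39 and 3.6 in anti-IL-6 paws, and 1.5, 2.69 and 4.4 in combination paws. Its values were 1.48, 2.64 and 4.37 in isotype paws, against 1.31, 1.53, 1.78 and 1.07 in no CIA paws. Of 13 libraries a group, 12 anti-TNF, 11 anti-IL-6, 12 combination and 11 isotype libraries stood above the highest no CIA library, so the groups touched at their edges. Oas1c, a copy without known synthetase activity, had 1.66, 2.23 and 3.04 FPKM in anti-TNF paws, 1.16, 2.32 and 3.05 in anti-IL-6 paws, and 1.62, 2.44 and 3.46 in combination paws. It had 1.96, 2.22 and 2.92 in isotype paws, against 2.89, 2.69, 2.08 and 1.9 in no CIA paws. These ranges lay on top of each other, and the no CIA mean was the second highest of the 5. Oas1c accounted for 11.9% ± 4.52 of the summed FPKM of the 8 genes in isotype paws (SD, n = 13) and for 35.2% ± 6.61 in no CIA paws (SD, n = 4), where it was the most abundant member.

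The larger enzymes stood apart in the same manner as Oas1a. Oas2 had 1.99, 2.82 and 8.49 FPKM in anti-TNF paws, 1.25, 2.64 and 9.51 in anti-IL-6 paws, and 1.73, 3.04 and 6.55 in combination paws. It had 1.85, 2.6 and 10.0 in isotype paws, against 0.605, 0.679, 0.862 and 0.518 in no CIA paws. Oas3, the longest enzyme of the family, had the lowest mean of the members in every group, no CIA included. It had 0.199, 0.334 and 1.34 FPKM in anti-TNF paws, 0.112, 0.322 and 1.45 in anti-IL-6 paws, and 0.141, 0.344 and 1.62 in combination paws. It had 0.156, 0.329 and 2.19 in isotype paws, against 0.0463, 0.0719, 0.0638 and 0.0613 in no CIA paws. For both genes no immunised library overlapped the no CIA group, and the immunised groups overlapped each other across most of their ranges. Oas3 had no group mean of 1 FPKM or more, so it was left out of the main test, and its no CIA values rest on about 14.9 to 22.3 fragments per library.

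Of the genes with ubiquitin-like ends, Oasl1 is known in the mouse as a brake on translation of the interferon factor Irf7. It had 0.562, 0.833 and 2.2 FPKM in anti-TNF paws, 0.506, 0.889 and 2.19 in anti-IL-6 paws, and 0.56, 0.958 and 2.24 in combination paws. It had 0.465, 0.946 and 3.37 in isotype paws, against 0.257, 0.384, 0.302 and 0.325 in no CIA paws. Oasl2, which in the mouse is an active synthetase, was the most abundant member in every immunised group. It had 3.77, 5.87 and 13.6 FPKM in anti-TNF paws, 2.6, 5.35 and 13.3 in anti-IL-6 paws, and 3.47, 6.63 and 14.7 in combination paws. It had 3.83, 5.75 and 25.2 in isotype paws, against 0.98, 1.52, 1.82 and 0.955 in no CIA paws. Neither gene had an immunised library within the no CIA range, and the isotype library at the top of both stood well clear of the next.

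Set side by side as descriptions, the differences from no CIA in log2(FPKM + 1) were similar for the 4 immunised groups, which share the same 4 no CIA libraries. For Oas1a they were 1.81 ± 0.318 in anti-TNF, 1.61 ± 0.318 in anti-IL-6, 1.74 ± 0.318 in combination and 1.74 ± 0.318 in isotype paws (SE). For Oasl2 they were 1.72 ± 0.332, 1.54 ± 0.332, 1.71 ± 0.332 and 1.77 ± 0.332 in that order of groups, and for Oas2 1.41 ± 0.298, 1.2 ± 0.298, 1.28 ± 0.298 and 1.33 ± 0.298. Oas1g differed by 0.96, 0.77, 0.97 and 0.89 (SE 0.238 each), Oasl1 by 0.61, 0.57, 0.61 and 0.63 (SE 0.186 each) and Oas1b by 0.61, 0.47, 0.61 and 0.58 (SE 0.16 each). Oas3, from a fit with no filter on low values, differed by 0.49, 0.46, 0.46 and 0.46 (SE 0.203 each). Oas1c stood at -0.05, -0.11, 0.01 and -0.01 (SE 0.114 each). Each SE rests on a spread pooled over all groups, most of it from immunised libraries. The spreads were unequal: the SD of Oas1a was 0.0624 FPKM in no CIA and 3.17 FPKM in isotype paws. For Oas1c these SDs were 0.477 and 0.353 FPKM. The SEs therefore do not describe the no CIA group by itself. As plain ratios of group means, which the added 1 does not shrink, isotype over no CIA was 10.1 for Oas1g, 8.7 for Oas1a, 8.57 for Oas3, 6.03 for Oasl2 and 5.32 for Oas2. It was 3.6 for Oasl1, 1.88 for Oas1b and 0.988 for Oas1c. The order of genes by log2 difference therefore differs from the order by ratio, since low genes lose most from the added 1. In bulk tissue, fewer cells of a type and less RNA per cell cannot be told apart.

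A gene was called where limma's p, adjusted by the Benjamini-Hochberg method over 14700 genes with a mean of at least 1 FPKM in any group, was under 0.05. Against no CIA the count of members above this threshold was 4 of 7 tested in anti-TNF, 3 in anti-IL-6, 3 in combination and 3 in isotype paws, beside 0.476%, 0.401%, 0.143% and 0.15% of all genes tested in those comparisons. The members were chosen on this contrast, and 4 of them (Oas1a, Oas1g, Oas2 and Oasl1) passed the filter only through the immunised groups, so nothing is read from the counts. Every library of a group lay above every no CIA library for 6 of 8 members in each of the 4 immunised groups, 5 of them among the 7 tested. Of all genes tested this held for 0.714% in anti-TNF, 2.7% in anti-IL-6, 1.46% in combination and 1.59% in isotype paws. The counts also rest on single libraries. Without no CIA replicate 4 the count of members called was 1 in anti-TNF, 1 in anti-IL-6, 0 in combination and 0 in isotype paws. Without replicate 1 it was 2, 1, 0 and 1 in that order of groups, and without replicate 2 it was 2 in anti-TNF, 1 in anti-IL-6 and 0 in combination paws. Without combination replicate 3 it was 5 for combination paws. Within the only index run that holds no CIA libraries, the 2 isotype libraries differed from them by 2.76 for Oas1a, 3.07 for Oasl2, 2.34 for Oas2 and -0.18 for Oas1c.

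Levels of marker lists for several tissues and cell types are given beside this contrast. The mean log2(FPKM + 1) of 13 neutrophil markers ranged over 1.67 to 5.82 in anti-TNF, 1.8 to 5.36 in anti-IL-6, 1.64 to 4.46 in combination and 1.34 to 4.91 in isotype paws, against 1.26 to 2.02 in no CIA paws. For 15 monocyte and macrophage markers the ranges were 3.85 to 6.11, 4.26 to 6.45, 4.17 to 5.3 and 3.97 to 5.57 in that order, against 3.86 to 4.07 in no CIA paws. The neutrophil ranges overlapped no CIA in all 4 groups, and the monocyte and macrophage ranges in anti-TNF and isotype paws. None of these markers was at 0 in all libraries. Over the members of each list, the median log2 difference from no CIA in anti-TNF, anti-IL-6, combination and isotype paws was 1.8, 1.95, 1.67 and 1.54 for neutrophil markers and 0.84, 0.81, 0.65 and 0.59 for monocyte and macrophage markers. It was 1.8, 1.78, 1.64 and 1.69 for bone and cartilage markers, 0.81, 0.79, 0.64 and 0.7 for fibroblast and synovial markers, and 0.57, 0.61, 0.53 and 0.53 for endothelial markers. Medians were negative for skeletal muscle (-0.99, -1.37, -0.45 and -0.64), adipocyte (-0.43, -0.7, -0.68 and -0.58) and epidermis markers (-0.37, -0.38, -0.36 and -0.2). Over all genes tested the medians were 0.03, 0.07, 0.02 and 0.03. Of these 8 lists limma called 1 marker, the fibroblast marker Thy1, in anti-IL-6 paws, although 8 of 10 bone and cartilage markers and 7 of 13 neutrophil markers had an unadjusted p under 0.05 in isotype paws. Their part in the family's levels was not tested.

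Between the immunised groups, no member of the family was called by limma in any of 6 comparisons, and 0 of 7 had an unadjusted p under 0.05. In anti-TNF against isotype paws the differences ran from -0.04 (Oasl2) to 0.08 (Oas2), with 4 of 7 positive. In combination against isotype paws they ran from -0.06 (Oasl2) to 0.09 (Oas1g), with 3 of 7 positive. In anti-IL-6 against isotype paws all 7 were negative, from -0.23 ± 0.227 for Oasl2 to -0.06 ± 0.127 for Oasl1 (SE, n = 13 each). Much of this rested on isotype replicate 4, except for Oas1c. For Oas1c that library, at 1.97 FPKM, lay below the isotype mean of 2.36 FPKM. Its difference ran from -0.14 to -0.06 over the fits that left out 1 library. Without isotype replicate 4 the difference was 0.03 for Oasl1, -0.08 for Oasl2, -0.00807 for Oas1a, -0.0173 for Oas1g, -0.0144 for Oas2 and -0.06 for Oas1b. Leaving out anti-IL-6 replicate 13 instead widened the difference, to -0.32 for Oasl2, -0.25 for Oas2, -0.23 for Oas1a and -0.12 for Oasl1. With all libraries the lowest adjusted p of this comparison was 0.606 by limma, for Oas1c, whose 95% confidence interval was -0.26 to 0.05. For Oas1a that interval was -0.57 to 0.31 and for Oasl2 -0.68 to 0.23, so differences within those limits could not be told from 0 with these mice. Of all 14700 genes tested, limma called 0% in anti-TNF against isotype, 0.952% in anti-IL-6 against isotype and 0% in combination against isotype. At an unadjusted p under 0.05 these comparisons held 804, 1882 and 850 genes.

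No member was called between combination paws and paws given either antibody alone. Against anti-TNF paws the members ranged from -0.13 (Oas2) to 0.06 (Oas1c), and against anti-IL-6 paws from 0.04 (Oasl1) to 0.2 (Oas1g), with all 7 positive. Anti-TNF paws were likewise above anti-IL-6 paws for all 7, from 0.04 for Oasl1 to 0.21 for Oas2. Oasl1 turned to -0.02 in both comparisons with anti-IL-6 paws when 1 library was left out, combination replicate 5 in the one and anti-TNF replicate 4 in the other. The 95% confidence intervals of the 7 members lay within -0.54 and 0.44 for combination against anti-TNF, -0.33 and 0.63 for combination against anti-IL-6, and -0.27 and 0.64 for anti-TNF against anti-IL-6. The members vary together between mice, so a shared sign over 7 genes is not 7 separate observations. Limma called 0% of all genes in combination against anti-TNF, 0.102% in combination against anti-IL-6 and 0% in anti-TNF against anti-IL-6. At an unadjusted p under 0.05 there were 160, 1671 and 688 genes. The interaction of the antibodies, combination minus anti-TNF minus anti-IL-6 plus isotype, lay between -5.76e-04 for Oas2 and 0.21 ± 0.322 for Oasl2 (SE), with 0 of 7 members called and 0.116% of all genes called.

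**Figure D2:**
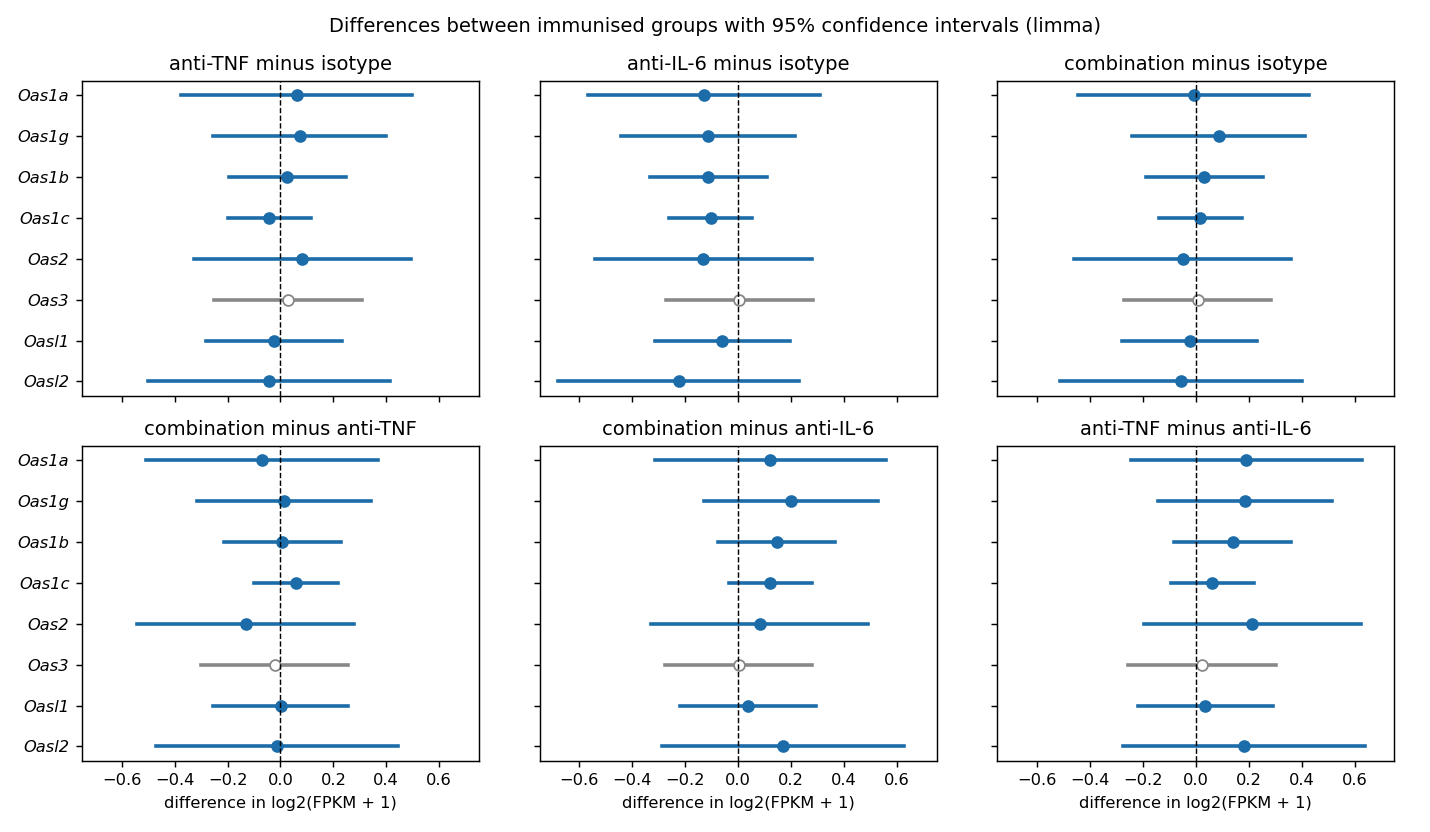
Differences in log2(FPKM + 1) between immunised groups for the 8 family genes, first-named group minus the other, with 95% confidence intervals from limma (n = 13 each). Open grey circles mark Oas3, which comes from the fit with no filter. Every interval crosses 0, and the members of the anti-IL-6 minus isotype panel other than Oas3 lie left of it.

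By group means, anti-IL-6 paws were the lowest immunised group for all 8 genes. The highest immunised group was isotype for Oasl1 and Oasl2, anti-TNF for Oas1a, Oas2 and Oas3, and combination for Oas1b, Oas1c and Oas1g. Without isotype replicate 4, an alternative chosen after seeing the data, anti-IL-6 was the lowest for 5 genes and isotype for 3 (Oas2, Oas3 and Oasl1), and isotype was the highest for none. No neighbours among the immunised groups in these orders differed beyond the spread between mice. Skeletal muscle markers were lowest in anti-IL-6 paws, with a mean log2(FPKM + 1) of 8.68 in anti-IL-6 and 9.4 in isotype paws, and 0 of 10 were called. Their part in the family's order was not tested. The summed FPKM of Oas1a, Oas1g, Oas1b and Oas1c, averaged 11.0 ± 3.59 in anti-TNF, 9.58 ± 2.86 in anti-IL-6, 11.0 ± 3.56 in combination and 11.0 ± 4.7 in isotype paws (SD, n = 13 each). It averaged 4.48 ± 0.596 in no CIA paws (SD, n = 4). A read moved between Oas1a and Oas1g changes this sum, since 1 fragment is worth about 0.0114 FPKM in Oas1a and 0.00922 FPKM in Oas1g, and so do reads dropped or counted more than once. On the log2 scale the sum differed by -0.15 ± 0.165 (SE) between anti-IL-6 and isotype paws (limma, adjusted p = 0.741) and by 0.17 ± 0.165 between combination and anti-IL-6 paws (limma, adjusted p = 0.655).

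The groups are spread unevenly over the index runs, and within runs the signs were not kept. In anti-IL-6 against isotype paws, 5 of 7 members were positive in run 4 (8 against 1 library) and 6 of 7 in run 5 (1 and 5 libraries), where the pooled fit has none. Anti-TNF paws stood above isotype paws for 6 of 7 members in run 3 (5 libraries each) and for 3 of 7 in run 5 (6 and 5). Combination paws stood above isotype paws for 6 of 7 members in run 3 (4 and 5 libraries), 7 of 7 in run 4 (4 and 1) and 2 of 7 in run 5 (1 and 5). They stood above anti-IL-6 paws for 6 of 7 members in run 2 (4 each) and run 4 (4 and 8), and for 1 of 7 in run 5 (1 each). Against anti-TNF paws the count was 0 in run 2 (4 and 2), 6 in run 3 (4 and 5) and 3 in run 5 (1 and 6). Anti-TNF paws stood above anti-IL-6 paws for 6 members in run 2 (2 and 4) and for 1 in run 5 (6 and 1). The isotype libraries of run 1 include the one with the highest family levels.

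Differences between single mice were much larger than those between immunised groups. The coefficient of variation of isotype paws was 66.1% for Oas1a, 75.1% for Oasl2, 64.6% for Oas2, 107% for Oas3 and 14.9% for Oas1c. In the other immunised groups it was 44.7% to 50.8% for Oas1a, 45.9% to 48.9% for Oasl2 and 44.2% to 69.7% for Oas2. There it was 76.5% to 86.9% for Oas3 and 18.4% to 24.4% for Oas1c. Isotype replicate 4 was the highest of all 56 libraries for Oas1a (13.4 FPKM), Oas1g (3.62), Oas2 (10.0), Oas3 (2.19), Oasl1 (3.37) and Oasl2 (25.2). It ranked second for Oas1b (4.37 FPKM) and only 42nd for Oas1c (1.97 FPKM). Combination replicate 5 was also among the 5 highest libraries for 7 of the 8 genes, all but Oas1c, and anti-IL-6 replicate 13 and anti-TNF replicate 4 were for 5 genes each. High libraries thus came from all 4 immunised groups. Anti-IL-6 replicate 4 was the lowest immunised library for Oas1a (1.29 FPKM), Oas1g (0.187 FPKM) and Oas2 (1.25 FPKM).

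**Figure D3:**
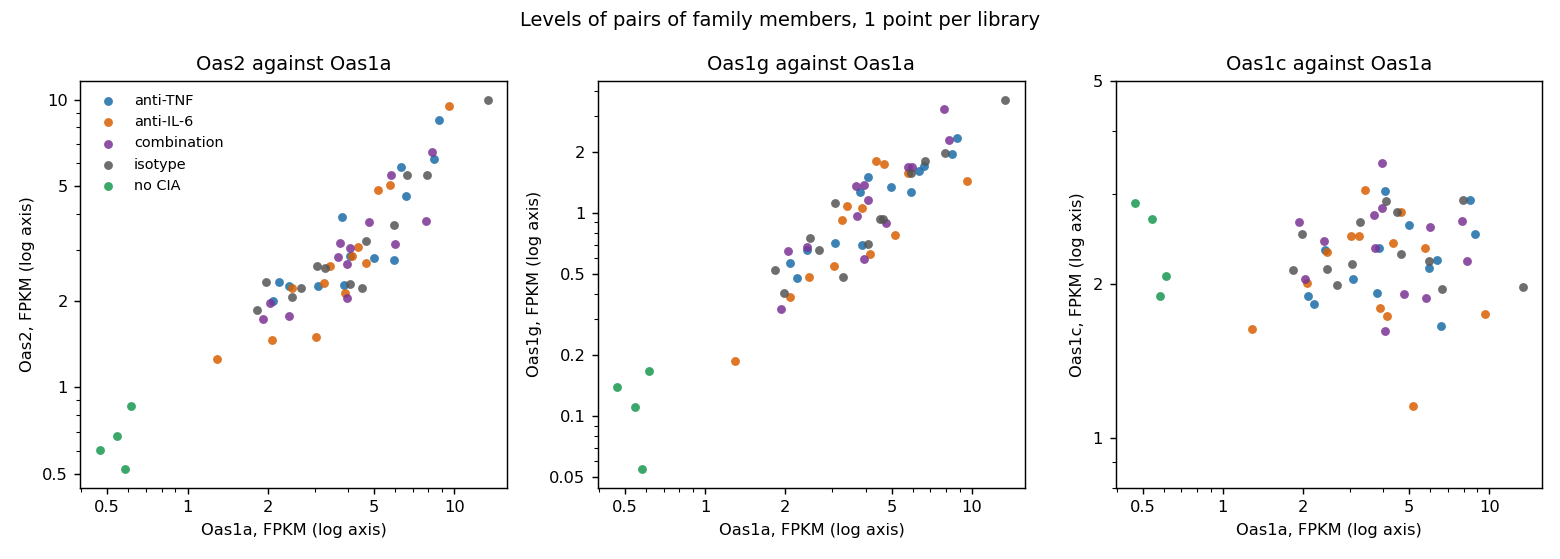
FPKM of Oas2, Oas1g and Oas1c (vertical, log axes) against Oas1a (horizontal, log axis), 1 point per library, coloured by group. Oas2 and Oas1g follow Oas1a along a diagonal within and across groups, and Oas1c stays between 1.16 and 3.46 FPKM over the whole range of Oas1a.

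After group means were taken off, the members other than Oas1b and Oas1c varied together between mice. Across 56 libraries Pearson's r of log2(FPKM + 1) over their 15 pairs ran from 0.729 (Oas1g with Oas3) to 0.922 (Oas2 with Oasl2), with a median of 0.845. These are descriptions: all points share their libraries, and Oas1a with Oas1g (r = 0.883) also share reads. Oas1b followed the same 6 genes less closely, with r between 0.588 (Oasl1) and 0.783 (Oas1a). Oas1c did not, with r between -0.208 (Oas3) and 0.139 over its 7 pairs, and 0.136 with Oas1b, from which it is separated by the 120 bases printed above. Leaving out the 2 libraries farthest from the median moved the median of the 15 pairs to 0.796, and Spearman's rho gave 0.81.

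**Figure D4:**
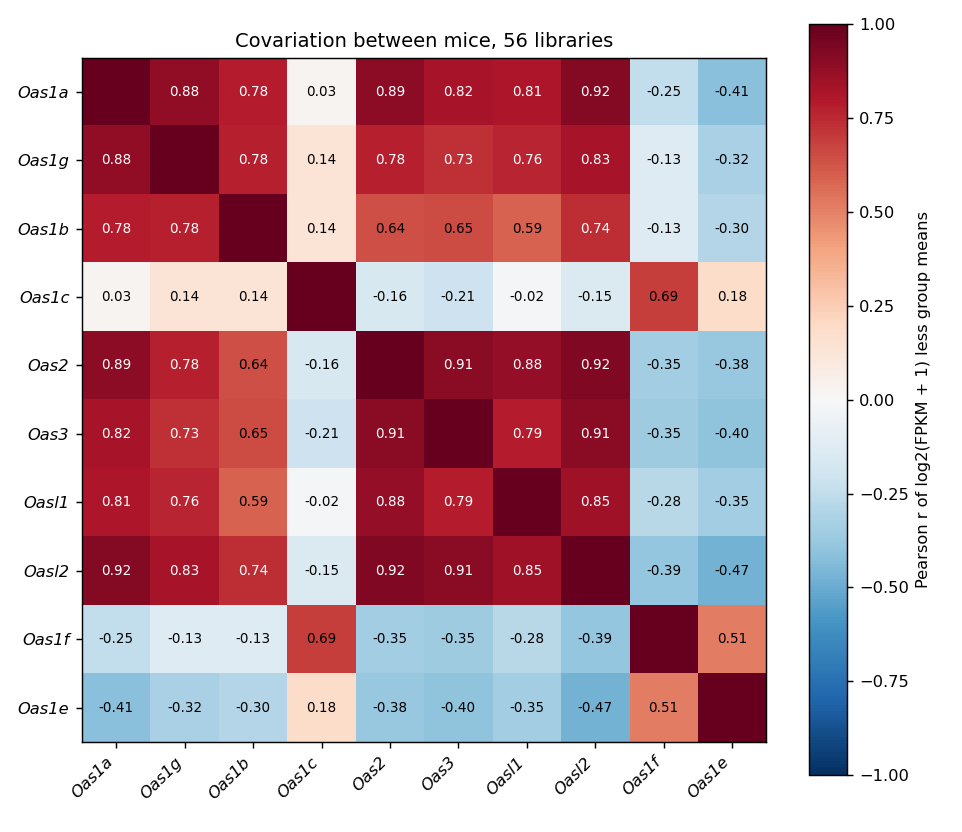
Pearson's r between mice of log2(FPKM + 1) less group means for the 8 family genes, Oas1f and Oas1e over 56 libraries, with the value in each cell. Oas1a, Oas1g, Oas1b, Oas2, Oas3, Oasl1 and Oasl2 form a block of high values, and Oas1c is paired with Oas1f (r = 0.691) and not with the block.

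The other 4 copies of the Oas1 array set the limits of this pattern. Oas1f was the most abundant gene of the array, with 17.9 ± 5.29 FPKM in anti-TNF, 16.4 ± 6.21 in anti-IL-6, 16.1 ± 4.33 in combination and 17.6 ± 4.2 in isotype paws (SD, n = 13 each), against 19.9 ± 3.42 in no CIA paws (SD, n = 4). All 5 groups overlapped, as for Oas1c, and limma called it in 0 of the 6 comparisons among immunised groups. Oas1e had 0.227 ± 0.103, 0.19 ± 0.111, 0.22 ± 0.101 and 0.296 ± 0.124 FPKM in those groups, against 0.333 ± 0.0547 in no CIA paws. Oas1d, a copy known from the mouse ovary, was listed at 0 in all but 3 libraries, and Oas1h in 45 of 56. Oas1f and Oas1e had r between -0.471 and 0.183 with members other than the pair of Oas1f with Oas1c.

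Among other genes of the pathway, Pde12 encodes an enzyme that breaks oligoadenylate chains down, and Abce1 a factor best known for recycling ribosomes. Neither was called by limma in any of the 6 comparisons among immunised groups, with differences from -0.24 to 0.13. Pde12 had 2.91 ± 0.448 FPKM in isotype paws (SD, n = 13) and 2.8 ± 0.486 in no CIA paws (SD, n = 4). Abce1 had 21.9 ± 2.28 FPKM in isotype paws and 21.1 ± 3.51 in no CIA paws, so both differences were smaller than the SDs.

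Upstream, transcripts of the interferons themselves were close to nothing. Of 21 interferon genes listed, 11 were at 0 in all 56 libraries, no value exceeded 0.148 FPKM, and 0 reached the level for testing. Ifng, the type II interferon, was above 0 in 34 libraries and Ifnb1, the beta interferon, in 6. All 6 interferon receptor genes were tested and 0 were called among immunised groups, with Ifngr1, a chain of the receptor for interferon gamma, highest at a mean of 43.5 FPKM over all libraries, then Ifnar2 at 29.4, Il10rb at 20.4 and Ifngr2 at 12.1. Their differences among immunised groups lay between -0.16 and 0.17.

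Of 12 signalling genes and transcription factors, 0 were called among immunised groups. Irf9, the DNA-binding part of the complex activated by type I interferon, had 18.4 ± 4.02 FPKM in anti-TNF, 17.0 ± 3.36 in anti-IL-6, 17.0 ± 3.41 in combination and 18.1 ± 4.08 in isotype paws (SD, n = 13 each), against 10.1 ± 0.758 in no CIA paws (SD, n = 4). Of the others with the highest means, Irf3 (43.8 FPKM over all libraries) stood at -0.22 to -0.1 in log2 terms against no CIA, Jak1 (25.2 FPKM) at 0.1 to 0.14, and Irf1 (18.0 FPKM) at 0.64 to 0.87. Of 14 sensors of nucleic acid listed, 11 were tested and 0 were called among immunised groups. Tmem173, which encodes STING, averaged 12.3 FPKM over all libraries and stood 1.18 to 1.41 above no CIA, and Zbp1, a sensor of Z-form nucleic acid, averaged 4.81 FPKM and stood 1.42 to 1.58 above. Mavs (15.5 FPKM), the adaptor of RNA sensors, stood at -0.24 to -0.15, and Adar (7.67 FPKM), an RNA-editing enzyme, at 0.33 to 0.34. Among 5 feedback genes, 0 were called among immunised groups: Isg15 (10.1 FPKM), a ubiquitin-like modifier, stood 1.46 to 1.55 above no CIA, Usp18 (3.33 FPKM), which removes Isg15, 0.68 to 0.94, Socs1 (3.56 FPKM) 0.57 to 0.78 and Socs3 (27.7 FPKM) 0.83 to 1.56. The comparisons with no CIA share the contrast on which the family was chosen and are descriptions.

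Over all 14700 genes tested, those most alike the mean of the 7 tested members between mice were Dhx58 (r = 0.943), Rtp4 (0.92), Ifi44 (0.907), Ifi44l (0.905), Xaf1 (0.905), Isg15 (0.899), Parp9 (0.89), Lgals3bp (0.886), Rnf213 (0.881) and Trim30a (0.871), by Pearson's r over 56 libraries less group means. For single members the most alike gene was Dhx58 for Oas1a (r = 0.933), Irf9 for Oas1b (0.81), Xaf1 for Oas1g (0.855), Trim30a for Oas2 (0.923), Ifi44 for Oasl1 (0.839) and Rtp4 for Oasl2 (0.958). For Oas1c it was Alkbh6 (r = 0.802), which had 18.7 ± 1.6 FPKM in isotype paws (SD, n = 13) and 19.8 ± 2.31 in no CIA paws (SD, n = 4). These genes were picked as the highest of many, so the r values are descriptions. Among marker scores, the monocyte and macrophage score had r = 0.781 with the mean of the tested members, the dendritic cell score 0.772, the fibroblast and synovial score 0.675, the neutrophil score 0.588 and the skeletal muscle score -0.399 over the same libraries. What these shares of cells contribute to the family's spread between mice was not tested.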

How the data were processed

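The deposited table holds 1 FPKM value per feature and library; no header names the unit, which was read from the values. Per the labels' protocols, paw RNA from RNeasy columns went into TruSeq Stranded mRNA libraries, read in pairs on a NovaSeq instrument to a stated 80 M raw reads each. DESeq2 is listed, with no version, in the submitters' processing notes. No source used here gives the aligner, build, annotation, read length or strand setting, so reads shared between Oas1 copies may have been split, dropped or counted more than once.

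Symbols were taken by Ensembl identifier, and gene positions, transcripts and word sharing from GENCODE M21 (GRCm38). Differences were tested with limma 3.58.1 in R 4.3.3 (trended and robust prior) on log2(FPKM + 1) in 1 fit of all 56 libraries with a mean per group. Genes with a mean of at least 1 FPKM in any group were tested (14700), with two-sided p adjusted by Benjamini-Hochberg and a threshold of 0.05. The test was tried on simulated data. There each gene had the same spread in all groups and was drawn independently of other genes. The trial therefore says nothing about unequal spreads or genes that vary together. The steps of low values did not give whole reads for nearly all genes (75.2% to 81.9% whole at a tolerance of 0.05), so no count test was run. Named genes are the 8 members, the 4 other Oas1 copies, listed pathway genes called among immunised groups or else the 4 of highest mean per list, and the genes most alike by Pearson's r. Members and lists were chosen with earlier results of these data known.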

Additional observations from a re-analysis of the deposited data

How the results depend on the processing

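No member was called among the immunised groups under any alternative tried, and the 0 of 7 members stood in all 26 fits of each comparison that left out a library (52 for the interaction). Signs were less stable: when 1 library was left out, 5 of 7 members changed sign in at least 1 fit of anti-TNF against isotype, 1 for anti-IL-6 against isotype, 6 for combination against isotype, 5 for combination against anti-TNF, 1 for combination against anti-IL-6, 1 for anti-TNF against anti-IL-6 and 3 for the interaction. Counts against no CIA, which describe the contrast on which the family was chosen, depended on the scale. With a pseudocount of 0.1, 6 members were called in anti-TNF, 5 in anti-IL-6, 6 in combination and 5 in isotype paws; with a pseudocount of 10 the count was 0 in each. With no filter it was 3, 2, 2 and 3, since Oas1g in anti-TNF (limma, adjusted p = 0.068), Oas2 in anti-IL-6 (0.0702) and Oas2 in combination paws (0.0624) were no longer called. With the compared groups alone it was 4, 2, 3 and 2, with median-of-ratios scaling 5, 3, 4 and 3, and with index run as a covariate 6, 6, 5 and 6. In the fit with index run, the no CIA libraries reach the other groups only through the 2 isotype libraries of their run. Isotype replicate 4, with the highest family levels, is among them. In the main fit, leaving out 1 library gave 1 to 5 members in anti-TNF, 1 to 3 in anti-IL-6, 0 to 5 in combination and 0 to 3 in isotype paws.

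The summed Oas1 genes (Oas1a, Oas1g, Oas1b and Oas1c) stood above no CIA by 0.91 in anti-IL-6 paws without passing the test. They passed it at 1.03 with a pseudocount of 0.1, 0.83 with median-of-ratios scaling and 1.75 with index run. The fit with index run again rests on the 2 isotype libraries in the run of the no CIA libraries. With a pseudocount of 10 the summed genes did not pass the test at 0.52 in anti-TNF, 0.52 in combination and 0.51 in isotype paws. The isotype difference of 1.06 was not called with no filter or with the compared groups alone. Leaving out 1 library gave 1.0 to 1.14 in anti-TNF, 0.82 to 0.98 in anti-IL-6, 1.0 to 1.13 in combination and 0.97 to 1.11 in isotype paws, and calls moved across the threshold. The anti-TNF call was lost without no CIA replicate 1, 2 or 4. The combination call was lost without any 1 of the 4 no CIA libraries or without combination replicate 4, 5, 6, 8, 9 or 11, and the isotype call without any 1 no CIA library or isotype replicate 3, 4, 7, 9 or 11. The anti-IL-6 difference was called without anti-IL-6 replicate 2, 4 or 11. Against isotype paws, leaving out 1 library gave -0.0295 to 0.12 for anti-TNF and -0.0408 to 0.11 for combination, and against anti-TNF paws -0.0662 to 0.0512 for combination. That last difference was 0.00832 with median-of-ratios scaling and 0.0388 with index run.

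Some differences changed sign, and not only those nearest 0. Among them, in anti-IL-6 against isotype paws, were Oasl2 (-0.23 in the main fit), Oas2 (-0.13) and Oas1a (-0.13). With index run as a covariate, differences from isotype became 0.11 (Oasl1) and 0.17 (Oasl2) in anti-TNF paws, and 0.00774 (Oas1a), 0.0153 (Oas1g), 0.13 (Oas2), 0.203 (Oasl1) and 1.1921e-04 (Oasl2) in anti-IL-6 paws. In combination paws they became 0.16 (Oas1a), 0.19 (Oas2), 0.19 (Oasl1) and 0.198 (Oasl2). Oasl2 became 0.023 for combination against anti-TNF, Oasl1 -0.0133 for combination against anti-IL-6, and Oas1c -0.0438 and Oasl1 -0.0896 for anti-TNF against anti-IL-6. Oas1c became -0.17 for combination against no CIA, and the interaction -0.0518 (Oas1a) and -0.13 (Oasl1). A pseudocount of 0.1 gave 0.00133 (Oas1a) and 0.00516 (Oasl1) for combination against isotype and an interaction of 0.0197 (Oas2). A pseudocount of 10 gave -8.10e-04 (Oasl1) for combination against anti-TNF. Median-of-ratios scaling gave 0.0054 (Oas1a) for combination against isotype, -0.0204 (Oas1c) for combination against no CIA and an interaction of 0.0288 (Oas2). None of these was called, and the cause was not tested.

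The mean r of the 21 pairs of tested members was 0.573, with 0.572 as Spearman's rho, 0.567 with a pseudocount of 0.1 and 0.574 in immunised libraries alone. No paired analysis was possible because replicate numbers follow deposition order and pair no mice across groups. Depth limits the no CIA values of Oas1g and Oas3 most, which rest on about 5.73 to 19.3 and 14.9 to 22.3 fragments per library. Median-of-ratios scaling shifted the median of all genes by at most 0.07 in size.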

Other observations

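Marker lists not described above differed in how they followed the family. Over 56 libraries less group means, the mean of the tested members had r = 0.643 with the endothelial score, 0.569 with the T cell score, 0.467 with the bone and cartilage score, 0.0796 with the B and plasma cell score, -0.245 with the adipocyte score and -0.508 with the epidermis score. The score of 6 genes listed for plasmacytoid dendritic cells, the cell type best known for making type I interferon, had r = -0.313. Whether these transcripts came from that cell type in a whole paw was not tested, so the score does not measure its number. The score ran from 3.5 to 4.18 in anti-TNF, 3.45 to 4.24 in anti-IL-6, 3.66 to 4.56 in combination and 3.57 to 4.2 in isotype paws, against 3.74 to 4.13 in no CIA paws. These ranges overlapped, and 0 of the 5 tested plasmacytoid markers were called by limma in any of the comparisons. These r values are descriptions over points that share their libraries.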
